A study of Mus musculus with 18 samples.

Results

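The Rtl1-antisense miRNAs are 8 mature microRNAs (mmu-miR-127-3p, mmu-miR-127-5p, mmu-miR-434-3p, mmu-miR-434-5p, mmu-miR-431-5p, mmu-miR-433-3p, mmu-miR-136-5p and mmu-miR-136-3p, written below without mmu) cut from 5 hairpins on mouse chromosome 12. They were taken by name from the deposited table of 1907 mature miRNAs, where each had 1 row, and their mapped reads were compared over 18 small RNA libraries. The libraries came from NIH/3T3, an established line of mouse embryonic fibroblasts, as input or after immunoprecipitation with an antibody to pseudouridine (Ψ-IP), which was used to ask which miRNAs carry Ψ, an isomer of uridine. WT libraries are from unperturbed cells, and KD3 and KD6 libraries from cells taken 3 and 6 days into a knockdown of Pus1, the gene of a Ψ synthase. All 6 groups used the same cell line without any other treatment named, and each held 3 libraries lettered A, B and C.

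Rtl1 is a retrotransposon-derived gene in the imprinted Dlk1-Dio3 domain and is expressed from the paternal chromosome. The miRNAs on its opposite strand are expressed from the maternal chromosome, as part of a long noncoding transcription unit that also yields the miR-379/miR-410 cluster farther downstream. Because they are antisense to Rtl1, these miRNAs pair perfectly with its mRNA and can direct its cleavage, and they are best known from placenta, embryo, muscle and brain.

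All 5 hairpins lay inside the coding exon of Rtl1, on the opposite strand, in GENCODE M21 (GRCm38). The coding part of Rtl1 runs over chr12:109590172-109595403 on the minus strand, and the plus-strand hairpins are Mir431 at chr12:109590447-109590537, Mir433 at chr12:109591715-109591838, Mir127 at chr12:109592846-109592915, Mir434 at chr12:109594506-109594599 and Mir136 at chr12:109595327-109595388. From the start of Mir431 to the end of Mir136 they span 4942 bases. Mir136 overlaps Mir3071 on the other strand. All 8 members matched RefSeq by name (build GRCm38.p6), with the same start positions as in the table. The mature sequences are shown because the seed (bases 2 to 8, in capitals) sets which other mRNAs a miRNA can recognise, and because uridines are the bases that can become Ψ.
miR-127-3p: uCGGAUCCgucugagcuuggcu
miR-127-5p: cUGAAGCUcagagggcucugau
miR-434-5p: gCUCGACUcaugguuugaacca
miR-434-3p: uUUGAACCaucacucgacuccu
miR-136-3p: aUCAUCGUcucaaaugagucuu
miR-136-5p: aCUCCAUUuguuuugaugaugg
miR-433-3p: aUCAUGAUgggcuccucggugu
miR-431-5p: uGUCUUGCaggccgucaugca

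The 8 seeds were all different, and none was shared with any other of the 1679 mature mouse miRNAs of the RefSeq table, so no wider seed family joins these miRNAs. What all 8 had in common was a perfect match to the Rtl1 transcript of 6358 bases, the reverse complement of each occurring in it and in no other transcript of that annotation, those of miRNA genes left aside. The site of miR-127-3p, the member with the most reads, starts at base 2642 of the transcript and reads 5′-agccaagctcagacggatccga-3′. The members are 21 to 22 bases long and hold 5 (miR-127-5p) to 10 (miR-136-5p) uridines, or 22.7% to 45.5% of their bases, against a median of 26.1% over the 1679 miRNAs. The 7 uridines of miR-127-3p make up 31.8%. The hairpin of miR-127 is shown with its arms in capitals, the 5p arm first, because it gave most of the reads.
Mir127: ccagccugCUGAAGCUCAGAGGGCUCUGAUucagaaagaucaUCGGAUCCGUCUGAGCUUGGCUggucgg

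Depth set what could be seen of miRNAs this rare. The KD6 input library A held 241109 mapped reads, and the other 17 held between 3989031 and 15099781. On the CPM scale (counts relative to library size, with each library scaled by the median-ratio factors used for testing), 3 reads, the limit that a count of 0 allows, corresponded to 14.8 CPM in that library and to 0.216 to 1.37 CPM in the other 17. A 0 in library A of the KD6 input is therefore weak evidence of absence, and the tests of miR-127-3p that use this library are given with and without it. Most other values include it. These limits and the intervals below cover counting error only and leave out the spread between libraries. They treat each read as a separate molecule, although no molecular identifiers tell copies of 1 molecule apart. The 7 fibroblast and mesenchyme miRNAs listed as markers were read in WT input and summed to 299220 to 661300 CPM over the inputs, whereas 3 blood markers summed to at most 1.09 CPM. The same 7 markers summed to 82829 to 214760 CPM after Ψ-IP, below every input, and a list of 2 neuronal miRNAs was higher after Ψ-IP (5815 to 9460 CPM against 2458 to 3338 CPM). Only 1 of these 2 had enough reads to be tested. The part of these shifts in the results below was not tested. The table holds miRNAs only, so the loss of the Pus1 transcript was not checked here.

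Reads of the Rtl1-antisense miRNAs were few, most of them were of miR-127-3p, and nearly all came from input libraries. Of 120916974 reads assigned to miRNAs in 18 libraries, 289 belonged to the 8 members, 269 of them in input and 20 after Ψ-IP. A total of 227 were miR-127-3p (78.5%). The remaining reads were 26 of miR-434-5p, 17 of miR-136-3p, 8 of miR-127-5p, 7 of miR-136-5p and 4 of miR-433-3p. Neither miR-434-3p nor miR-431-5p had a read in any of the 18 libraries, which over all of them allows a level of up to 0.0232 CPM for each. The opposite arms that are not members, miR-431-3p and miR-433-5p, were also at 0 throughout.

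**Figure D1:**
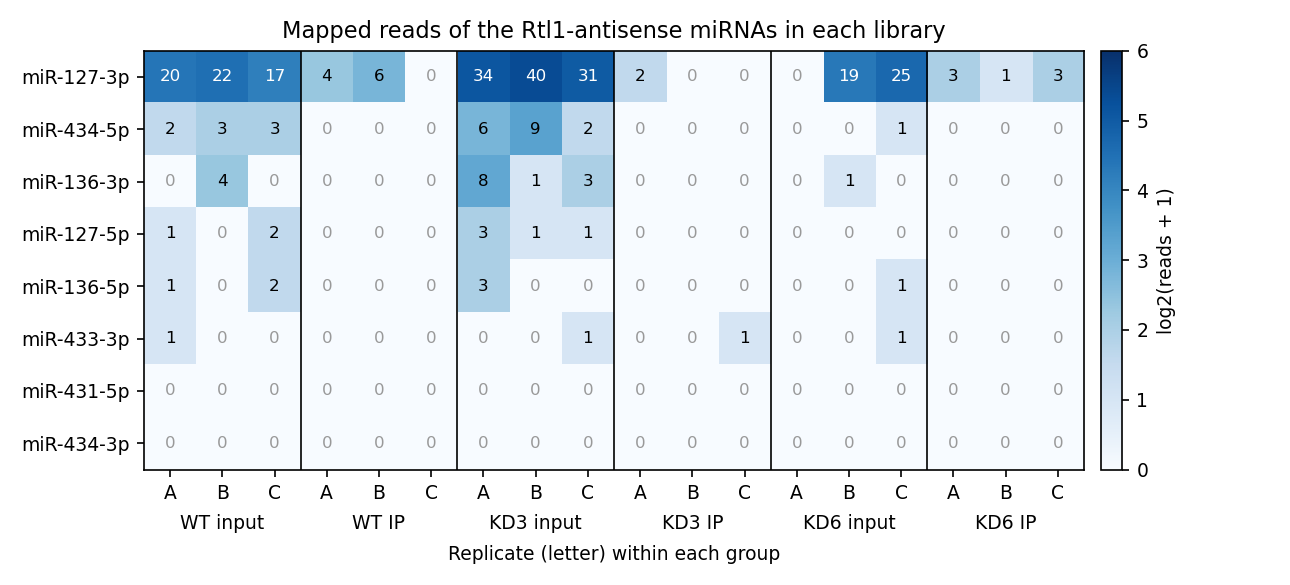
Mapped reads of each member (rows, ordered by input reads) in each of the 18 libraries (columns, lettered by replicate within the 6 groups), printed in the cells and shaded by log2(reads + 1). Reads gather in the input columns of the top row, which reach 40 in KD3 input B, and below that row a single IP library has a read.

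In WT input, miR-127-3p was read 20, 22 and 17 times in replicates A, B and C, or 1.91, 1.60 and 1.35 CPM (1.62 ± 0.285, SD, n = 3). This placed it at rank 446 of the 1029 miRNAs with a read in WT input. The next member, miR-434-5p, had 2, 3 and 3 reads there (0.216 CPM on average). In KD3 input miR-434-5p had 6, 9 and 2 reads, and in KD6 input 0, 0 and 1. Of the other 4 members with reads, none was found in every WT input library. Reads of miR-136-3p came from WT input B (4 reads), the 3 KD3 inputs (8, 1 and 3) and KD6 input B (1). Those of miR-127-5p were 1, 0 and 2 in WT input and 3, 1 and 1 in KD3 input, with none at KD6. For miR-136-5p they were 1, 0 and 2 in WT input, 3 in KD3 input A and 1 in KD6 input C. miR-433-3p never had more than 1 read in a library.

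Pooled over the 9 inputs, the order of levels was miR-127-3p (2.28 CPM, exact Poisson 95% interval 1.98 to 2.61), miR-434-5p (0.284, 0.186 to 0.417), miR-136-3p (0.186, 0.108 to 0.298), miR-127-5p (0.0875, 0.0378 to 0.172), miR-136-5p (0.0766, 0.0308 to 0.158) and miR-433-3p (0.0328, 0.00677 to 0.0959), with the other two at 0. The members are of nearly 1 length, but how well each sequence is captured in a library was not measured, so this is an order of reads. Only the step from miR-127-3p to miR-434-5p, of 8 times in reads, separated neighbours in that order beyond their counting intervals. All later neighbours overlapped.

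Arm use differed between the hairpins as far as their reads allow. Of 216 input reads of miR-127, 208 were of the 3p arm (96.3%, exact binomial 95% interval 92.8% to 98.4%), and the share was 95.2% of 62 reads in WT input, 95.5% of 110 in KD3 input and all of 44 in KD6 input. miR-434 was read from its 5p arm alone, with 0 of 26 input reads on the 3p arm, for which the exact interval reaches 13.2%. miR-136 gave both arms, 17 of 24 input reads being 3p (70.8%, 48.9% to 87.4%). Libraries were pooled for these shares, and no hairpin had enough reads on both arms for a test of arm use between groups.

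The reads of miR-127-3p were not copies of a single sequence. In the 8 inputs that had any, they fell into 7 to 14 distinct sequences per library, and over 18 libraries each distinct sequence accounted for 2.55 reads. The 153 other miRNAs whose totals lay within 2-fold of its own had a median of 3.18 (lower quartile 2.65).

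The comparison of Ψ-IP with input addresses which miRNAs the antibody retains. In WT cells miR-127-3p had 4, 6 and 0 reads in the WT IP libraries, or 0.988, 1.12 and 0 CPM, against 1.91, 1.60 and 1.35 CPM in input. All 3 IP libraries lay below all 3 inputs, as was so in 1 direction or the other for 76% of the 550 miRNAs tested. The log2 ratio of IP to input was -1.28 (SE 0.73) and did not pass (edgeR quasi-likelihood test, Benjamini-Hochberg adjusted p = 0.121 over 550 miRNAs). The median over all 550 was -0.04, and 68.9% of them passed in this comparison, so most tested miRNAs moved. miR-127-3p was the only member with enough reads to be tested, and nothing is shown here for the others. It entered the test through its input reads, since no IP library held more than 6. Its selection was therefore not independent of the IP to input differences tested here and below. Pooled counts of 10 IP reads and 59 input reads gave a ratio of 0.390 (exact 95% interval 0.178 to 0.768). Single libraries weighed on this value, which was -0.60 without WT IP replicate C (adjusted p = 0.434) and -1.96 without WT IP replicate B (adjusted p = 0.0668).

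In KD3 cells the same miRNA fell after Ψ-IP. KD3 input held 34, 40 and 31 reads of miR-127-3p (2.45, 3.11 and 3.72 CPM), and the KD3 IP libraries held 2, 0 and 0 (0.748, 0 and 0 CPM). The groups did not overlap, as for 75.5% of the miRNAs tested. The log2 ratio was -3.96 (SE 0.96, edgeR quasi-likelihood adjusted p = 0.00106), where 70.5% of the 550 miRNAs passed, 36.2% passed with a lower level after IP, and 10.4% had a lower ratio than this one. Since 2 IP reads stand behind that value, the pooled ratio of 0.0575 is given with its exact interval of 0.00687 to 0.213, and 34.8 IP reads would have matched the input level. Leaving out KD3 IP replicate C gave -2.97. Leaving out KD3 IP replicate A, the only one of the 3 with a read, gave -7.50. No KD3 IP read is left there, so reads set the direction of that value but not its size. The adjusted p stayed at or below 0.0162 in both.

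KD6 cells gave fewer input reads. miR-127-3p had 0, 19 and 25 reads in KD6 input (0, 2.59 and 2.09 CPM) and 3, 1 and 3 reads in KD6 IP (1.21, 0.457 and 0.557 CPM). Replicate A of the input was the shallow library, in which 0.474 reads were due at the mean level of the other two. The other two inputs lay above all 3 IP libraries, and 74.5% of the 550 miRNAs likewise did not overlap, in either direction, once replicate A was left out. The log2 ratio was -1.62 (SE 0.83, edgeR quasi-likelihood adjusted p = 0.0861, 71.3% of miRNAs called), and without KD6 input replicate A it was -2.13 and passed (adjusted p = 0.0269). Pooled counts of 7 and 44 reads gave a ratio of 0.309 (exact interval 0.117 to 0.692).

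**Figure D2:**
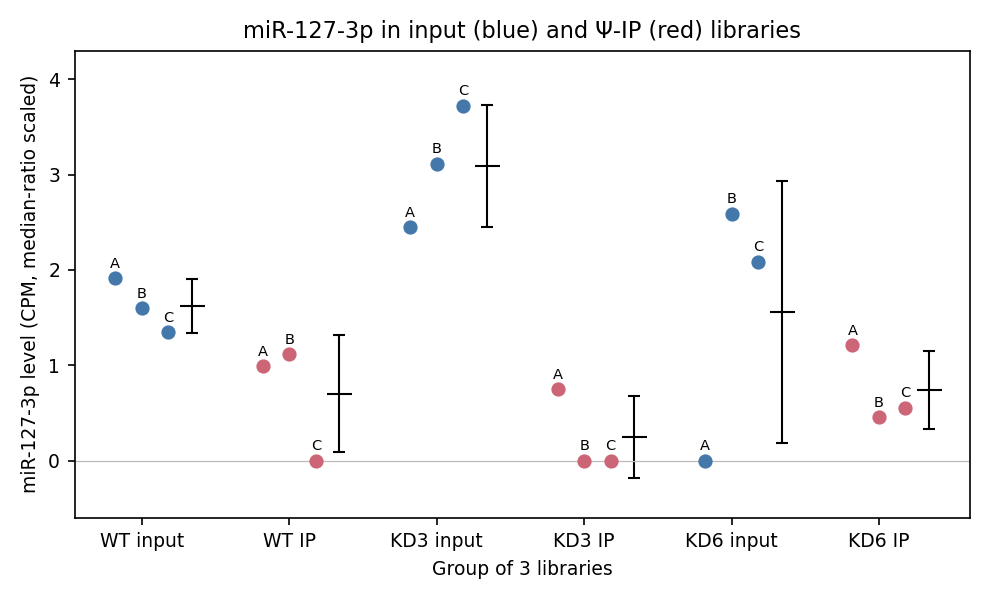
Level of miR-127-3p in CPM (vertical axis, linear) in each library, with input libraries in blue, Ψ-IP libraries in red, replicate letters above the points, and the group mean ± SD as a black bar beside them (n = 3). Of the 9 inputs, 8 lie above the highest IP library (1.21 CPM), the exception being replicate A of the KD6 input at 0.

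Over the 3 conditions together, miR-127-3p was lower after Ψ-IP. The mean of the 3 log2 ratios, a contrast added after the counts had been seen, was -2.29 (SE 0.50, edgeR quasi-likelihood adjusted p = 0.000223), in a comparison where 85.5% of the 550 miRNAs passed and 43.1% were lower. Without KD6 input replicate A it was -2.66 (edgeR adjusted p = 4.0e-05, 461 of the 550 called). It was -3.46 without KD3 IP replicate A, where no KD3 IP read is left and reads do not set its size. With the group labels exchanged within each condition, an exact permutation test gave p = 0.00425 (two-sided, 8000 arrangements, mean of 0.565 CPM after IP and 2.09 CPM in input). Without KD6 input replicate A the exact permutation p was 0.00025, the smallest that its 4000 arrangements can give. That value follows from the lack of overlap within each condition given above, and adds nothing to it. The permutation test was not planned and was run on miR-127-3p alone. How many of all miRNAs reach either permutation p was not computed. IP reads were found in 6 of 9 IP libraries, none above 1.21 CPM, and 8 of 9 inputs were at 1.35 CPM or more. The share of all miRNAs that separate in this way was not computed either.

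The other members had 61 reads in input and 1 after Ψ-IP, where 25.1 were due at the input level and the depth of the IP libraries. The 25.1 uses 1 depth ratio pooled over all libraries (41.2%), not the depth of each condition. How often equally rare miRNAs had so few IP reads was not computed. Over the 1212 miRNAs with a read, the median of the mean log2 IP ratio was -0.28. That single read was of miR-433-3p in KD3 IP replicate C. With 0 reads after IP, the exact 95% interval of the IP to input ratio reached up to 0.370 for miR-434-5p and 0.588 for miR-136-3p. These limits, 2.70-fold and 1.70-fold lower after IP, pool the libraries and leave out the spread between them. For miR-127-5p the interval reached 1.42 and for miR-136-5p 1.68, so no difference was detectable at this depth. For miR-433-3p the ratio of 1 to 3 reads had an interval of 0.0154 to 10.1. None of these members had enough reads to enter the main test. A further fit held every miRNA that had a read (1212 in all). There the mean of the 3 IP ratios passed for miR-434-5p (edgeR quasi-likelihood adjusted p = 0.0344), as for 48.3% of these 1212 miRNAs. It did not pass for miR-136-3p (edgeR adjusted p = 0.0669), miR-136-5p (adjusted p = 0.178) or miR-433-3p (adjusted p = 0.628). miR-434-5p, miR-136-3p and miR-136-5p had 0 reads in every IP library, so reads do not set the size of their ratios. miR-127-5p had no read in any KD6 library, so the fit gave no informative p-value for it.

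Whether Pus1 knockdown altered the IP ratio was tested as a difference of ratios. For miR-127-3p the KD3 ratio was lower than the WT ratio by a log2 difference of -2.68 (SE 1.31, edgeR unadjusted p = 0.0544, adjusted p = 1.00), which did not pass. Leaving out 1 library gave -6.23 (without KD3 IP replicate A, unadjusted p = 0.00691, adjusted p = 0.760) to -1.70 (without KD3 IP replicate C), and -3.38 without WT IP replicate C and -2.02 without WT IP replicate B. No KD3 IP read lies behind the -6.23, so reads do not set its size. No miRNA of the 550 passed here (0% called with edgeR, 16 at an unadjusted p under 0.05, and 0 with DESeq2). The difference between KD6 and WT was -0.34 (SE 1.16, adjusted p = 0.893, 0% called with edgeR, 119 at an unadjusted p under 0.05, and 23 with DESeq2), and it turned to 0.34 without WT IP replicate B. Without KD6 input replicate A it was -0.58 (edgeR adjusted p = 0.819, 14 of the 550 called). Between KD6 and KD3 the difference was 2.34 (SE 1.40, adjusted p = 0.34, 0.182% called with edgeR, 112 at an unadjusted p under 0.05, and 13 with DESeq2), and 5.90 and 1.37 without KD3 IP replicates A and C. Reads do not set the size of the 5.90 either. Without KD6 input replicate A the KD6 to KD3 difference was 2.15 (edgeR adjusted p = 0.366, 21 of the 550 called). These 3 differences share libraries, and with 0 to 6 reads per IP library their errors were wide enough to leave their size undetermined.

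Input levels at KD3 stood above those in WT, and the difference did not pass the test. miR-127-3p stood at 2.45 to 3.72 CPM in KD3 input and at 1.35 to 1.91 CPM in WT input, without overlap, as did 30.7% of the 550 miRNAs in either direction and 15.8% in this one. Its log2 ratio of 0.92 (SE 0.58) had an edgeR quasi-likelihood adjusted p of 0.810, and 98.2% of the tested miRNAs had a lower ratio, yet none passed (0% called, 44 at an unadjusted p under 0.05, 8 with DESeq2). When the 6 input libraries of WT and KD3 were fitted alone, 75 of the 550 miRNAs passed, and miR-127-3p, at a log2 ratio of 0.93, had an unadjusted p of 0.0110 and an edgeR adjusted p of 0.0699. The summed level of the 8 members was 1.90 to 2.39 CPM in WT input and 3.89 to 4.56 CPM in KD3 input. Most of this sum is miR-127-3p, so it adds little to the values of that miRNA. For KD6 against WT input miR-127-3p had a log2 ratio of 0.46 (SE 0.64, adjusted p = 0.808, 3.09% of miRNAs called), and for KD6 against KD3 input -0.46 (SE 0.64, adjusted p = 0.765, 4% called). Without KD6 input replicate A these ratios were 0.56 (edgeR adjusted p = 0.708, 32 of the 550 called) and -0.40 (adjusted p = 0.757, 51 called). In bulk RNA, a change in how many cells express a miRNA and a change in its amount per cell cannot be told apart.

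**Figure D3:**
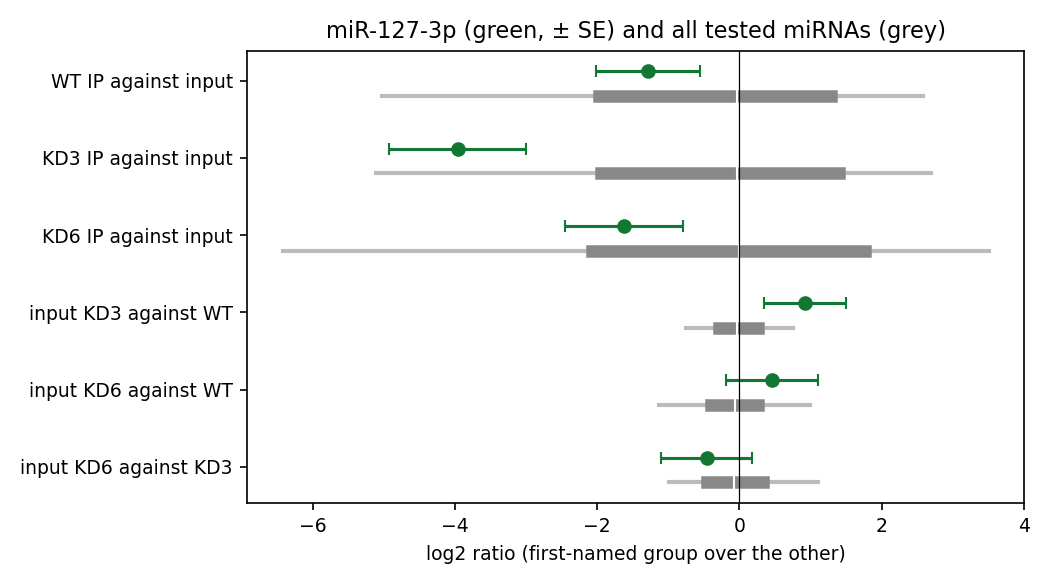
Log2 ratios (horizontal axis) of miR-127-3p with SE (green) for the 3 IP comparisons and the 3 pairs of inputs, above the spread of all 550 tested miRNAs in grey (thin line, 5th to 95th percentile, thick line, 25th to 75th, white mark, median). The KD3 IP ratio of -3.96 is the single one past the threshold, and the KD3 to WT input ratio of 0.92 lies above the thin grey line.

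Levels within the imprinted domain were very uneven. Of 19 other miRNAs from hairpins near Rtl1, 4 had any read, 10.8 reads in all (miR-493-5p, miR-337-5p, miR-770-3p and miR-540-3p), and none entered the test. miR-3544-5p, which is on neither list and was named after its values were seen, lies among these hairpins and had 4 reads in input and 6 after IP. The miR-379/miR-410 cluster, which starts 118618 bases downstream of the start of Mir431, was abundant instead. Reads were found for 69 of its 76 listed miRNAs, 48 of them above miR-127-3p in mean WT input level, up to 2281 CPM for miR-379-5p. Its summed level was 3879 to 4752 times that of the 8 members in WT input libraries and 3130 to 3747 times in KD3 input. Like the members' sum, the cluster's sum was higher in each KD3 input (13281 to 14559 CPM) than in any WT input (8575 to 9278 CPM). How often sums over other sets of miRNAs separate so was not computed. None of the cluster's 55 tested miRNAs passed for KD3 against WT input in the fit over all 18 libraries. Their median log2 ratio was 0.49, and that of all 550 miRNAs was -0.03.

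**Figure D4:**
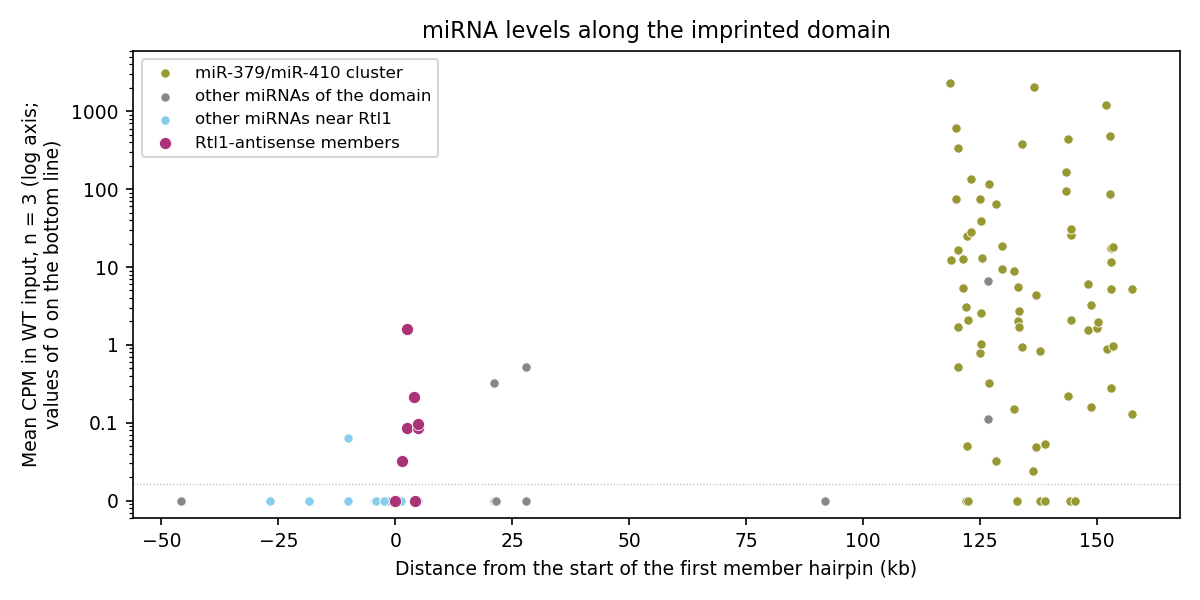
Mean level in the 3 WT inputs (log axis, values of 0 on the bottom line) of each miRNA of the domain against its distance in kb from the start of the first member hairpin, Mir431. Members (purple) do not exceed 1.62 CPM, the other miRNAs near Rtl1 (light blue) are nearly all at 0, and the miR-379/miR-410 cluster (olive) reaches 2281 CPM. Other miRNAs of the domain (grey) reach 6.67 CPM, for miR-666-5p.

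After Ψ-IP the cluster's miRNAs moved in both directions. Of the 55 tested, 14 were higher and 24 lower in WT IP, 14 and 26 in KD3, and 16 and 25 in KD6, with median log2 ratios of -0.80, -0.63 and -0.50, where the medians over all 550 miRNAs were -0.04, -0.03 and -0.0044. The ratios of miR-127-3p in these comparisons, -1.28, -3.96 and -1.62, lay below those medians. Whether the members differ from the cluster was not tested, and 1 tested member is too few to describe a group.

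By profile over the 18 libraries, the miRNAs most like miR-127-3p among the 150 others with a mean of at least 100 CPM were miR-145a-5p (Pearson r of 0.83 on log2(CPM + 1)), miR-140-5p (0.82) and miR-199b-5p (0.73). The median over the 150 was -0.14, and 57 were above 0.5. Within the 9 inputs r was 0.88, 0.73 and 0.77 for these 3, and within the 9 IP libraries 0.41, 0.73 and 0.57. All points share the same libraries and their scaling, and the shallow KD6 input is among them.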

How the data were processed

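Small RNA from NIH/3T3 cells was sequenced as input and after Ψ-IP (6 groups of 3 libraries, grouped by their labels). Reads were processed by the authors in SeqImp (version not stated), with removal of the 3′ adapter, on mm10 with Ensembl 89 and miRBase 21. They deposited estimated counts, unnormalized, per miRNA and locus, and, in other columns, numbers of distinct read sequences. The total row, which names no miRNA, was kept out of tests and library sizes; 5.47% to 38.2% of mapped reads lay outside miRNA rows. All 144 member values were whole numbers, so none came from reads divided among loci.

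Rows were summed per mature miRNA (2045 rows, 1907 miRNAs) and the estimated counts were rounded. The test was edgeR 4.0.16 in R 4.3.3 (filterByExpr, leaving 550 miRNAs and 1 member; median-ratio factors, as in the study's methods; glmQLFit and glmQLFTest; 6 group means; no replicate block), with Benjamini-Hochberg adjustment and a threshold of 0.05. SEs were taken as the absolute log2 ratio over the root of F. The labels name separate replicates without saying whether they are separate cultures, so p-values measure the spread between these libraries, which may be technical. Intervals are 95% (exact Poisson, Clopper-Pearson, or conditional on the summed count for a ratio). Exact tests were run with Python 3.11.15 and scipy 1.17.1. The procedure was also run on simulated counts, with changes set in a minority of the miRNAs. That setting differs from miRNAs with few IP reads and from comparisons where most miRNAs moved, so its outcome is not used here. Alternatives were other scalings, filters and tools (DESeq2 1.42.0), the largest precursor row, a block, only the libraries compared, and each library left out.

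All members and both opposite arms are named, with the 3 most similar miRNAs. The members, lists and rules were chosen with earlier results of these data known. Planned tests of the ratio between arms needed a mean of 10 counts per arm, which no member hairpin reached.

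Letters were checked as pairs over 189 miRNAs by the correlation of deviations from group means. All 3 pairs passed 0.1 between KD3 and WT inputs (0.20 to 0.60) and between KD6 and KD3 inputs (0.23 to 0.33), and not in the other comparisons. No label says what a letter shares.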

Additional observations from a re-analysis of the deposited data

How the results depend on the processing

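Over 182 repeats of the miR-127-3p comparisons under other settings, 177 kept direction and side of the threshold, and DESeq2 gave no adjusted p in 4 more. Over all miRNAs, KD3 against WT input called 0 of 550, but 75 with only the libraries compared, 8 with DESeq2, 5 without an abundance filter, and 1 each with library size without factors and with the replicate block. The counts over all miRNAs also ranged from 0 to 66 for the change in enrichment between KD6 and KD3 (1 as reported), 0 to 59 between KD6 and WT (0), 5 to 51 for KD6 against KD3 input (22) and 6 to 32 for KD6 against WT input (17). The number of members called for KD6 IP against input was 0, and it was 1 with TMM factors (log2 ratio -2.01, edgeR adjusted p = 0.0349), with library size without factors (1 member, -2.46, adjusted p = 0.0105) and with total mapped reads as library size (1 member, -2.79, adjusted p = 0.00443). These scalings moved the median of all miRNAs to -0.35, -0.81 and -1.14, and relative to it miR-127-3p stayed at -1.66, -1.66 and -1.65, against -1.62. Leaving out 1 library gave 0 to 1 members called there, the 1 being without KD6 input replicate A. The mean of the 3 IP ratios had 1 member called, or 2 without an abundance filter, miR-434-5p, with 0 reads after IP, being the other. For the change in enrichment between KD6 and WT, leaving out 1 library gave -1.02 to 0.34, the 0.34 being without WT IP replicate B. With the replicate block, where the letters pair the libraries by their values, the KD3 to WT input ratio was 0.97 (adjusted p = 0.802) and the KD6 to KD3 input ratio -0.39 (adjusted p = 0.832). A block changed no call on a member. The ratio between arms could not be fitted. Depth limits these results throughout, since 7 members were below the filter and most IP libraries held 0 to 3 reads of any member.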

Other observations

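Among the other miRNAs of the domain, named here after their values were seen, miR-341-3p and miR-370-3p, from hairpins downstream of the members and upstream of the miR-379/miR-410 cluster had reads in many libraries. miR-341-3p had 73.5 reads in input and 0 in all 9 IP libraries. Of its input reads, 24.5, 10.5 and 15.0 came from the KD3 inputs and 3, 3 and 6.5 from the WT inputs. The rest came from KD6 input replicate C. These counts are not scaled to library depth, and the IP reads due at its input level were not computed. How many other miRNAs separate so between KD3 and WT input, or lack IP reads, was not computed either. Neither miR-341-3p nor miR-370-3p entered the test. miR-370-3p had 66.0 reads in input and 19.0 after IP, found in 6 of 9 IP libraries. Most reads of these other miRNAs were of miR-666-5p, which lies within the span of the cluster but is not on its list. It had 764 reads in input and 218 after IP, found in all 9 IP libraries. Its mean of 6.67 CPM in WT input was above that of every member.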
